A study of Saccharomyces cerevisiae with 7 samples.

Results

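The genes described here are 10 genes of arginine metabolism in budding yeast, Saccharomyces cerevisiae: 7 that make arginine (ARG1, ARG2, ARG3, ARG4, ARG7, ARG8 and CPA1), the ornithine exporter of mitochondria (ORT1) and 2 that break arginine down (CAR1 and CAR2). They were taken by gene symbol from the platform annotation of the arrays, and each was measured by 1 probe set, which makes 10 of the 5449 genes and 10 of the 5498 probe sets that could be named to 1 gene. They were selected on their function and on their log2 levels in each wild-type array and in the deletion arrays. These levels, and the differences between arrays and between strains, are therefore a description. Test results and intervals given for these genes below are descriptive too, because the choice used the same values.

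Yeast makes arginine from glutamate. Acetylated intermediates are carried to ornithine inside mitochondria, ornithine is exported to the cytosol, and carbamoyl phosphate and aspartate are added there to give arginine. Several synthesis genes are repressed when arginine is plentiful by a complex of Arg80, Arg81 and Mcm1, which also activates the catabolic genes, while the transcription factor Gcn4 activates synthesis genes when amino acids are short.

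Total RNA was hybridised to Affymetrix Yeast Genome 2.0 arrays, 1 per culture, with 4 biological replicates of the wild type and 3 of an HMT1 deletion strain. Hmt1 is the enzyme that methylates most of the arginine residues modified in proteins of this yeast. BY4741, used as the wild type, is a haploid of mating type a with the alleles his3∆1, leu2∆0, met15∆0 and ura3∆0. The deletion strain carried hmt1∆::KANMX4 in that background and so shared those alleles. Rich medium (YEPD) and minimal media with phosphate or with potassium chloride in its place appear in the labels, but not which of these the RNA came from, and the growth phase is not stated in the sources used here. The values are log2 expression levels made by the authors with RMA, a method that gives every array the same distribution, so a shift in total messenger RNA could not be seen. In RNA from whole cultures, fewer cells expressing a gene and less RNA per cell cannot be told apart.

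HMT1 itself was at 12.10, 11.76, 11.58 and 11.90 in wild-type replicates 1 to 4 and at 5.03, 4.50 and 4.77 in the deletion arrays, as the labels require (-7.07, SE 0.15, limma adjusted p = 4.89e-07; exact two-sided permutation p = 0.0286, the smallest that 35 splits allow). Array medians lay between 9.95 and 9.98. The wild-type arrays were not uniform in the 5 probe sets labelled J01347, which have no gene name. They lay between 3.18 and 4.44 in replicates 1 and 3 of the wild type and between 6.16 and 12.59 elsewhere. The background, from 23 control probe sets that match no yeast transcript, had mean levels between 3.34 and 5.13. Wild-type replicates 1 and 3 were thus at background in all 5 probe sets, and every other array was above it. Why the wild type divided in this way was not tested. This division of the wild type is used below to show where the arginine genes lay in each pair of arrays. The labels name no batch that goes with it.

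The widest spread was in ARG1 and ARG3, genes of cytosolic steps. ARG1, argininosuccinate synthetase, joins citrulline and aspartate. Its log2 level was 10.97, 7.77, 10.62 and 8.67 in wild-type replicates 1 to 4 and 9.98, 9.76 and 9.60 in deletion replicates 1 to 3. Wild-type replicates 1 and 3 were the highest of the 7 arrays, replicates 4 and 2 the lowest, and all 3 deletion arrays fell in the gap between them. The wild-type range of 3.20, about 9.18-fold, ranked 3 among the 5498 probe sets, whose median range was 0.29. A wild-type range of at least 1 was measured in 2 of the 10 arginine genes, ARG1 and ARG3, and in 2.56% of all probe sets. The deletion range was 0.38.

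ARG3, ornithine carbamoyltransferase, makes citrulline from ornithine and carbamoyl phosphate. It was at 7.75, 5.90, 7.90 and 6.15 in the wild-type arrays and at 7.36, 7.20 and 6.87 in the deletion arrays. The order was like that of ARG1, with wild-type replicates 3 and 1 highest, the deletion arrays in between and replicates 4 and 2 lowest. Its wild-type range of 2.00 ranked 26. The lowest ARG3 value was still above the background: 23 control probe sets that match no yeast transcript had mean levels between 3.34 and 5.13.

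The mean of wild-type replicates 1 and 3 exceeded that of replicates 2 and 4 by 2.57 for ARG1, or 5.95-fold, and by 1.80 for ARG3, or 3.48-fold. Ranked from the most positive such difference, these genes stood at 1 and 2 of the 5498 probe sets. By size in either direction, ARG1 ranked 4 and ARG3 ranked 10. Within the pairs, ARG1 differed by 0.35 between replicates 1 and 3 and by 0.91 between replicates 2 and 4, and ARG3 by 0.15 and 0.25. A difference of at least 1 between the pairs, in either direction, was measured in 37 probe sets (0.673%), and in 2 of the 10 arginine genes.

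**Figure D1:**
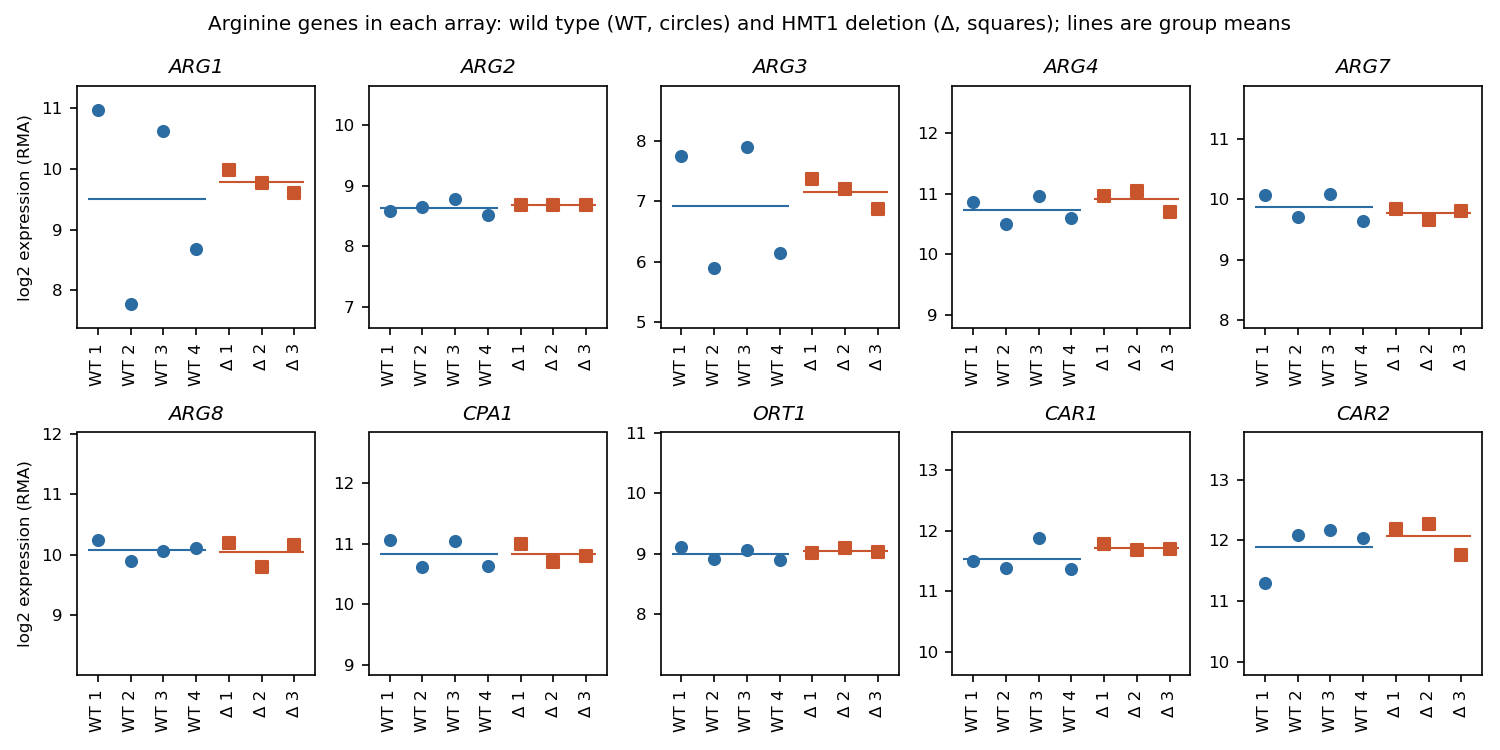
Log2 expression of the 10 arginine genes in each array, with wild-type arrays (WT 1 to WT 4) as circles, HMT1 deletion arrays (Δ 1 to Δ 3) as squares and group means as lines; every panel spans the same height on the log2 scale. ARG1 and ARG3 spread over 3.20 and 2.00 in the wild type, and their deletion arrays lie between the high and the low wild-type arrays.

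The other cytosolic genes followed the same division with smaller steps. CPA1, the small subunit of the carbamoyl phosphate synthetase that serves arginine, was at 11.05, 10.61, 11.04 and 10.62 in the wild type and at 11.00, 10.70 and 10.80 in the deletion strain. As for ARG1 and ARG3, the deletion arrays all lay between the wild-type pairs. ARG4, argininosuccinate lyase, which releases arginine in the last step, was at 10.86, 10.51, 10.96 and 10.60 in the wild type and at 10.97, 11.05 and 10.70 in the deletion strain. Here the deletion arrays were all above wild-type replicates 2 and 4. Deletion replicate 2 was above every wild-type array, and deletion replicate 1, at 10.965, was level with the highest of them, at 10.963.

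Of the mitochondrial genes, ARG7 and ORT1 showed the division and ARG8 and ARG2 did not. ARG7, the ornithine acetyltransferase that passes the acetyl group from acetylornithine back to glutamate, was at 10.06, 9.71, 10.09 and 9.64 in the wild type and at 9.84, 9.66 and 9.81 in the deletion strain. Wild-type replicates 1 and 3 were above all 5 other arrays. ARG8, acetylornithine aminotransferase, was at 10.24, 9.91, 10.07 and 10.11 in the wild type and at 10.20, 9.80 and 10.16 in the deletion strain. For ARG8 wild-type replicate 4 was above replicate 3, so the pairs overlapped, and the deletion range of 0.40 was wider than the wild-type range of 0.33. It was the exception among the 10 genes, the other 9 having a larger SD in the wild type than in the deletion strain, as 76.1% of all probe sets did.

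ARG2, acetylglutamate synthase, makes the first acetylated intermediate. It was at 8.58, 8.65, 8.78 and 8.52 in the wild type and at 8.68, 8.69 and 8.68 in the deletion strain, and the wild-type pairs overlapped. ORT1, which carries ornithine out of mitochondria, was at 9.11, 8.91, 9.06 and 8.89 in the wild type and at 9.02, 9.10 and 9.02 in the deletion strain. Its wild-type pairs were apart by 0.19, and its range over the 4 wild-type arrays, 0.22, was the smallest of the 10 genes.

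All 7 synthesis genes had a higher mean in wild-type replicates 1 and 3, with a median difference from replicates 2 and 4 of 0.40 against 0.03 over all probe sets, of which 59.2% were higher. Both arrays of one pair were above both of the other for 5 of the 7 (ARG1, ARG3, ARG4, ARG7 and CPA1), where 22.5% of all probe sets showed that order and 13.1% the opposite one. The deletion arrays all fell between the pairs for 3 (ARG1, ARG3 and CPA1), as for 2.42% of all probe sets. These genes were chosen with this order known, so nothing is read from the counts.

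**Figure D2:**
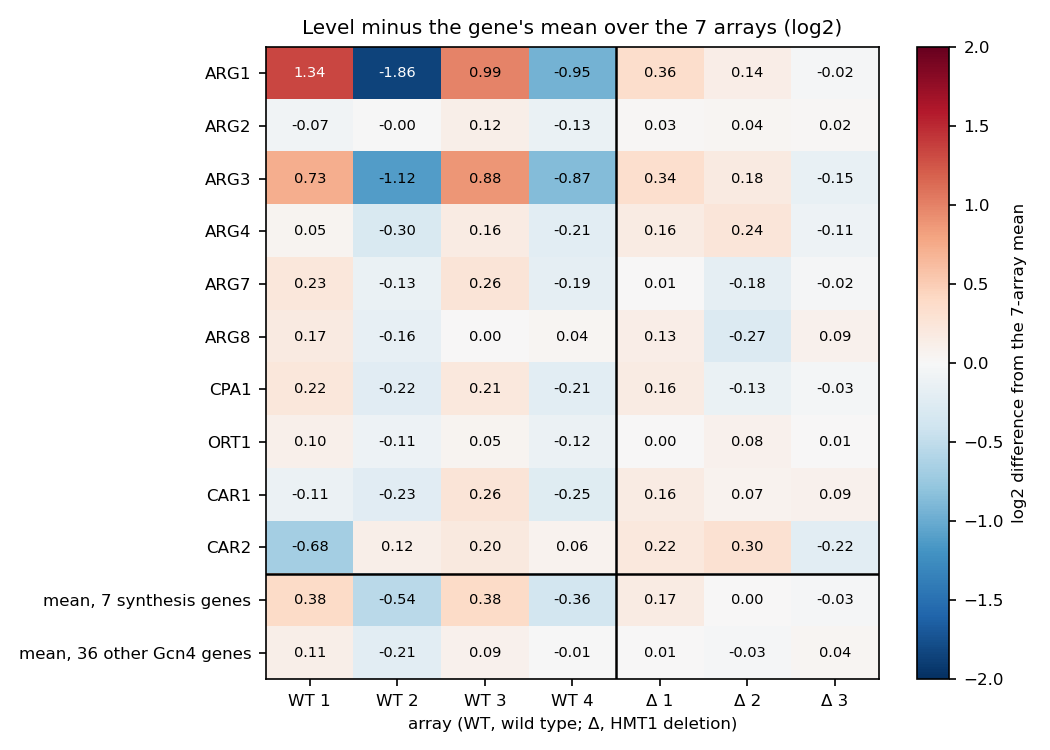
Each gene's log2 level minus its mean over the 7 arrays, for the 10 arginine genes, for the mean of the 7 synthesis genes and for the mean of 36 other Gcn4-dependent amino acid genes, with red above and blue below the gene's own mean. The synthesis mean runs from -0.54 in wild-type replicate 2 to 0.38 in wild-type replicate 1, and the deletion arrays lie between -0.03 and 0.17.

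The catabolic genes behaved differently from each other. CAR1, arginase, splits arginine into ornithine and urea. It was at 11.50, 11.38, 11.87 and 11.36 in the wild type and at 11.77, 11.68 and 11.70 in the deletion strain. Wild-type replicates 1 and 3 were above 2 and 4, by 0.31 on average, the same order as for the synthesis genes, and all 3 deletion arrays lay within the wild-type range. CAR2, ornithine aminotransferase, acts on the ornithine that arginase releases. It was at 11.29, 12.09, 12.18 and 12.04 in the wild type and at 12.19, 12.27 and 11.76 in the deletion strain, so that wild-type replicate 1 was the lowest of the 7 arrays. Replicates 1 and 3, alike in ARG1 and ARG3, were 0.89 apart in CAR2, the full wild-type range.

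The study's main comparison asks which transcripts differ without HMT1. Measured over all 4 wild-type arrays, the differences of the 10 genes, deletion minus wild type, lay between -0.11 for ARG7 and 0.28 for ARG1. ARG1 went from 9.51 ± 1.54 (SD, n = 4) to 9.78 ± 0.19 (SD, n = 3), and the 95% interval of its difference of 0.28 (SE 0.73) ran from -1.42 to 1.98. ARG3 went from 6.93 ± 1.05 (SD, n = 4) to 7.15 ± 0.25 (SD, n = 3), a difference of 0.22 (SE 0.51, interval -0.96 to 1.40). Both intervals assume the same spread in the 2 strains around 1 mean each. For these genes the wild-type SD was far larger and the wild-type arrays fell into pairs, so the intervals are only a rough guide.

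The other genes were measured more tightly. The difference was 0.05 for ARG2 (interval -0.11 to 0.21), 0.05 for ORT1 (-0.12 to 0.22) and -0.03 for ARG8 (-0.30 to 0.24). CPA1 was at 10.83 ± 0.25 (SD, n = 4) and 10.83 ± 0.15 (SD, n = 3), with an interval from -0.33 to 0.32. ARG4 was 0.17 higher (-0.14 to 0.48), ARG7 was at -0.11 (-0.40 to 0.19), CAR1 at 0.19 (-0.10 to 0.47) and CAR2 at 0.17 (-0.35 to 0.70).

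In the limma fit over all 5498 probe sets, 0 of the 10 genes were called at an adjusted p under 0.05, where 0.200% of all probe sets were. At an unadjusted p under 0.05 there were also 0, against 6.64% of all probe sets. In none of the 10 were the 2 strains free of overlap, against 7.64% of all. There were 7 genes higher and 3 lower (ARG7, ARG8 and CPA1), and 52.5% of all probe sets were higher. The median difference was 0.05 for the 7 synthesis genes and 0.01 over all probe sets.

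The result for the synthesis genes turned on the wild-type arrays used. Against replicates 2 and 4 alone, the deletion strain was 1.56 higher for ARG1, or 2.95-fold, and 1.12 higher for ARG3, or 2.17-fold. Against replicates 1 and 3 alone, ARG1 was at -1.01 and ARG3 at -0.68. All 10 genes were higher than in replicates 2 and 4, from 0.01 for CAR2 upwards, and 7 of 10 were lower than in replicates 1 and 3. All 3 deletion arrays were above both replicates 2 and 4 for 7 of the 10 genes (21.0% of all probe sets), and below both replicates 1 and 3 for 4 of them, ARG1, ARG3, ARG7 and CPA1 (11.1% of all probe sets). The J01347 probe sets, which divide the wild type in the same way, were high in all deletion arrays, as in wild-type replicates 2 and 4. Their part in the result was not tested.

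**Figure D3:**
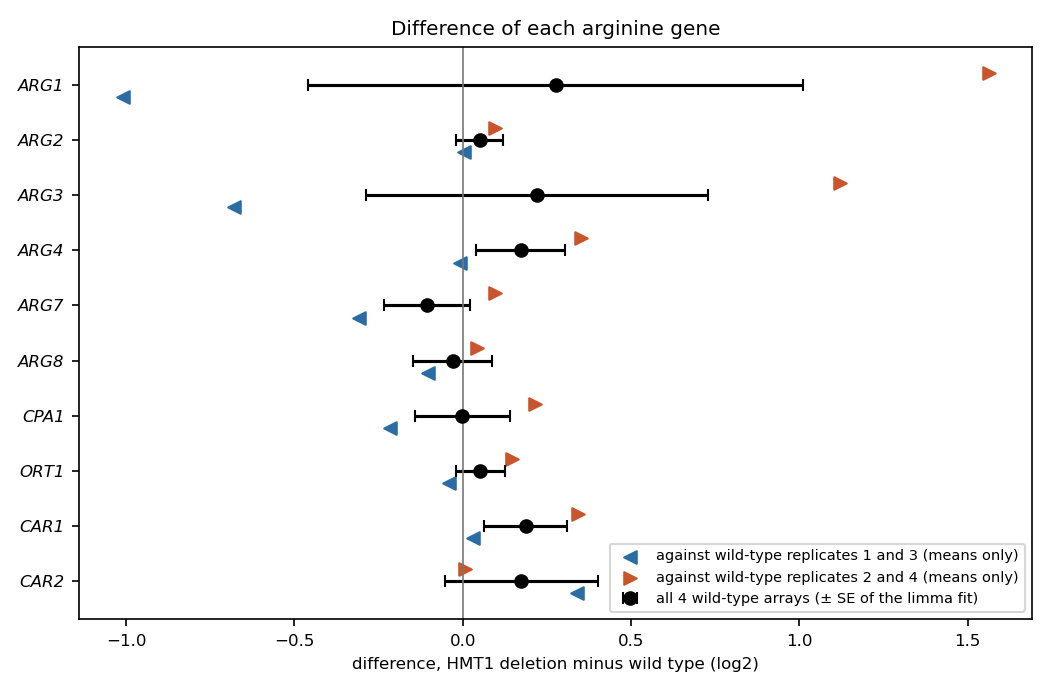
Log2 difference of each arginine gene, HMT1 deletion minus wild type: black points with bars are the difference over all 4 wild-type arrays ± SE of the limma fit, left-pointing blue triangles the difference against wild-type replicates 1 and 3, and right-pointing orange triangles against replicates 2 and 4, both without error. For ARG1 and ARG3 the triangles lie on opposite sides of 0, at -1.01 and 1.56 and at -0.68 and 1.12.

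**Figure D4:**
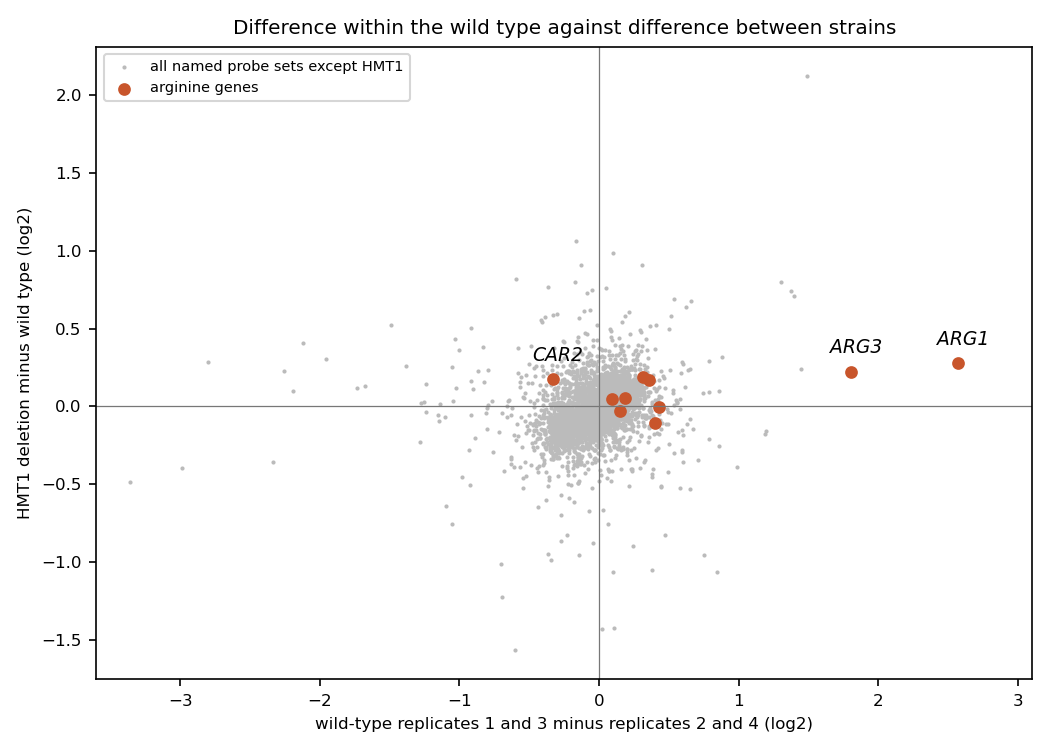
For each named probe set except HMT1, the difference between wild-type replicates 1 and 3 and replicates 2 and 4 (horizontal) and between deletion and wild type (vertical), both log2, with the 10 arginine genes as large points; the axes share the same arrays. ARG1 at 2.57 and ARG3 at 1.80 are farthest to the right of all probe sets while their strain differences are 0.28 and 0.22.

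Genes that act around the pathway were compared in 8 further lists, of regulators, transporters, precursor supply, proline, urea, polyamine and pyrimidine genes and other Gcn4 targets. Of their 92 genes, 87 were measured by a named probe set. The others were not analysed here. None of the 87 passed the limma test over all probe sets (0.200% of all did). At an unadjusted p under 0.05 there were 3 higher and 4 lower, or 7 of 87 (6.64% of all probe sets), and the strains did not overlap in 6 (7.64% of all). Their median difference was 0.01.

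The regulators held 13 measured genes, with a median difference of 0.04. GAT1, an activator of nitrogen-catabolic genes, had the largest difference among them, at 9.68, 9.58, 9.79 and 9.66 in the wild type and at 9.30, 9.41 and 9.33 in the deletion strain. The groups did not overlap, and the difference of -0.33 (SE 0.07) did not pass (limma adjusted p = 0.219). MCM1, part of the arginine-responsive complex, was at 0.14 (SE 0.11, limma adjusted p = 0.840). ARG80 and ARG81, the other DNA-binding members of that complex, were at 0.04 and -0.07, and the inositol polyphosphate kinase gene ARG82, which the complex needs, was at 0.09.

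GCN4 messenger RNA was between 13.46 and 13.56 in all 7 arrays and showed none of the spread of ARG1, with the wild-type pairs 0.03 apart. As background, Gcn4 is controlled mainly in translation, which these arrays do not measure. ARG80 and ARG81 likewise differed by at most 0.01 between the wild-type pairs. In 6 of the 13 regulators, replicates 1 and 3 were both above 2 and 4, by 0.17 or less.

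Of 10 measured transporter genes of arginine and other basic amino acids, 3 were higher and 7 lower in the deletion strain, and none passed. RTC2, also called YPQ3, a vacuolar membrane protein for basic amino acids, was at 0.34 (SE 0.14, limma adjusted p = 0.742) and its relative YPQ2 at -0.33 (SE 0.11, adjusted p = 0.611). GAP1, the general amino acid permease, was at 9.24, 8.84, 9.07 and 8.67 in the wild type and at 8.73, 8.76 and 8.54 in the deletion strain. Its wild-type pairs were 0.40 apart, like those of ARG7, but its deletion arrays were close to replicates 2 and 4. GAP1 was the only 1 of the 10 with both replicates 1 and 3 above 2 and 4 (22.5% of all probe sets). In 3 of the 10 the order was the opposite (13.1% of all), and the median pair difference was -0.14. CAN1, the arginine permease, was between 11.32 and 11.62 with no such order.

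In the glutamate and glutamine genes, the suppliers of the pathway's nitrogen, the median difference was -0.06 over 7 genes. GDH2, the glutamate dehydrogenase that breaks glutamate down, was at -0.17 (SE 0.08, limma adjusted p = 0.768) and GDH3, a synthetic isozyme, at -0.12 (SE 0.11, adjusted p = 0.840). GDH1, the main synthetic isozyme, was at 13.18, 12.56, 13.13 and 12.76 in the wild type and at 12.78, 12.81 and 12.80 in the deletion strain. Its arrays fell in the order seen for ARG1 and ARG3, replicates 1 and 3 on top, then the deletion arrays, then replicates 4 and 2. The lowest deletion array, at 12.779, was only just above replicate 4, at 12.765. Of the 7 genes, GDH1 alone had the deletion arrays between the pairs (2.42% of all probe sets). Both replicates 1 and 3 were above 2 and 4 in 2 of the 7 (22.5% of all), and the pairs overlapped in 5.

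None of the proline, urea, polyamine and pyrimidine genes passed. PUT2, which makes glutamate in the last step of proline breakdown, was at 0.19 (SE 0.08, limma adjusted p = 0.742), and PUT3, the activator of the PUT genes, at -0.10 (SE 0.08, adjusted p = 0.840). The urea and polyamine transporter gene DUR3 was at -0.04 (SE 0.09, adjusted p = 0.920). SPE1, ornithine decarboxylase, was at 0.09 (SE 0.07, adjusted p = 0.840), and SPE2, which decarboxylates S-adenosylmethionine, at 0.08 (SE 0.08, adjusted p = 0.840). Of the pyrimidine genes, which share carbamoyl phosphate with the pathway, URA10, the minor orotate phosphoribosyltransferase, was at 0.32 (SE 0.07, adjusted p = 0.351) with all deletion arrays above all wild-type arrays, and PPR1, their activator, at -0.24 (SE 0.14, adjusted p = 0.803).

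The 36 other amino acid synthesis genes under Gcn4 had a median difference between the strains of 0.02, with SER3, of serine synthesis, at -0.41 (SE 0.12, limma adjusted p = 0.493) and LYS20, homocitrate synthase of lysine synthesis, at 0.29 (SE 0.23, adjusted p = 0.840). Within the wild type they went the same way as the arginine genes by pair means, by less, but replicate 4 differed. Less each gene's own mean, the 36 genes averaged 0.11, -0.21, 0.09 and -0.01 in wild-type replicates 1 to 4. In the deletion arrays they averaged between -0.03 and 0.04, so only replicate 2 was clearly low. The mean of the arginine synthesis genes was low in both, at -0.54 in replicate 2 and -0.36 in replicate 4. In 25 of 36 both replicates 1 and 3 were above 2 and 4 (22.5% of all probe sets), and in none both below (13.1% of all). The median pair difference was 0.19, with a range from -0.04 for LEU4 to 0.79 for LYS20. For the 7 arginine synthesis genes the median was 0.40 and the range from 0.09 for ARG2 to 2.57 for ARG1. Whether the lists differ was not tested. The deletion arrays lay between the pairs for 4 of the 36 (2.42% of all probe sets).

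Likeness to the synthesis genes was measured as the root-mean-square distance over the 7 arrays between a gene's profile, less its own mean, and the mean profile of the 7 genes. The median distance of the 5439 genes outside the 10 was 0.32, and that of a flat profile was also 0.32. The 7 genes themselves lay between 0.17 for CPA1 and 0.70 for ARG1, with ARG3 at 0.39. ARG1 and ARG3 were thus farther from the mean profile than a flat profile was. A gene near the mean is therefore not necessarily near any 1 of the 7. The nearest was YHI9, at a distance of 0.11, with levels of 10.29, 9.62, 10.35 and 9.86 in the wild type and 10.10, 10.07 and 10.07 in the deletion strain. It was followed by LYS1 (0.12), saccharopine dehydrogenase of lysine synthesis, FMP23 (0.13), RTS3 (0.14), LYS20 (0.15), SNZ1 (0.16), of vitamin B6 synthesis, LYS9 (0.16), of lysine synthesis, and YOR302W (0.16). LYS1, LYS20 and LYS9 belong to the 36 other Gcn4-dependent genes compared above. The lysine synthesis genes LYS2, LYS4, LYS12 and LYS21 of that list were not among the 8 nearest.

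YOR302W is the short reading frame in the leader of the CPA1 transcript, the gene next to CPA1 in the RefSeq R64 annotation, and is known to encode the arginine attenuator peptide that slows translation of CPA1 when arginine is plentiful. Its probe set read 9.86, 9.26, 9.77 and 9.10 in the wild type and 9.59, 9.27 and 9.30 in the deletion strain. Wild-type replicates 1 and 3 were above all other arrays, as for ARG7, and the pairs differed by 0.63, against 0.43 for CPA1. Because leader and coding region belong to 1 transcript, the 2 probe sets are not independent measurements.

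**Figure D5:**
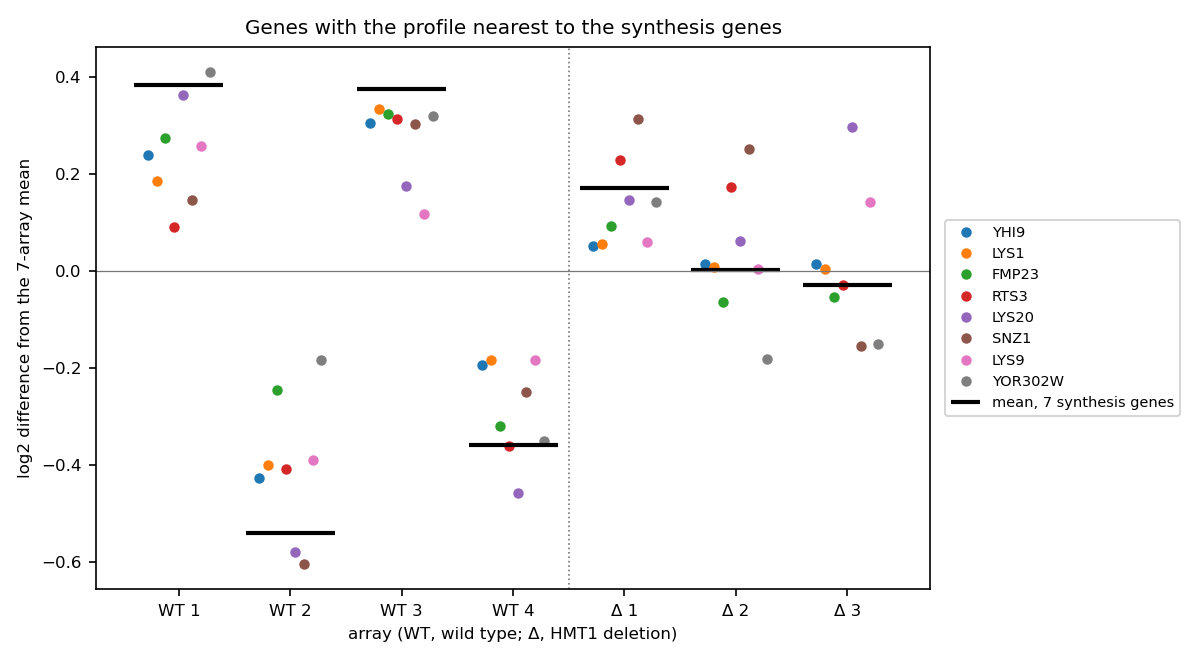
Log2 level minus the gene's mean over the 7 arrays, for the 8 genes outside the arginine genes with the nearest profile (points) and for the mean of the 7 synthesis genes (black bars). The nearest gene, YHI9, lies 0.11 from the bars by root-mean-square distance, and in all 8 genes wild-type replicates 2 and 4 are the lowest of the 7 arrays.

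Markers of mating type a moved with the same division of the wild type, in the opposite direction. All 6 a-specific markers (STE2, STE6, BAR1, MFA1, MFA2 and AGA2) were lower in replicates 1 and 3 of the wild type, with differences from replicates 2 and 4 between -1.39 and -0.26. Their mean level was 12.12 and 11.97 in replicates 1 and 3, 12.79 and 12.74 in replicates 2 and 4, and 12.43 to 12.50 in the deletion arrays, so these arrays again lay in between. AGA2, an a-agglutinin subunit, was at 0.26 (SE 0.39) between the strains and the a-factor gene MFA1 at 0.16 (SE 0.25), neither past the test (limma adjusted p = 0.887 and 0.894). Of the alpha-specific markers, MF(ALPHA)1, an alpha-factor gene, was at 4.08 ± 0.08 (SD, n = 4) and 4.12 ± 0.02 (SD, n = 3), within the range of the background controls (3.34 to 5.13). STE3 lay between 6.54 and 7.20 and SAG1 between 8.77 and 9.15. The wild-type pairs overlapped in MF(ALPHA)1 and STE3 and were apart in SAG1, with replicates 1 and 3 lower. Between the strains, SAG1 was at -0.18 (SE 0.09, adjusted p = 0.796). The part of these markers in the spread of the arginine genes was not tested.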

How the data were processed

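The authors deposited 1 log2 value per probe set and array, and the submitters' processing notes name RMA and affy 1.52.0. Any filter or test of theirs is not given in the sources used here, and no genome build is named, so no coordinates are given, and promoter sequences were not used here. Of 5900 probe sets, 5498 were named to 1 gene through the platform annotation (12 symbols updated through RefSeq R64), and 402 without a gene name stayed out.

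Each probe set was compared between 4 wild-type and 3 deletion arrays in R 4.3.3 with limma 3.58.1 (lmFit, then eBayes; two-sided), with Benjamini-Hochberg adjustment over all 5498 and a threshold of 0.05. Errors of differences and 95% intervals come from this fit. A run on simulated data checked the recovery of planted differences and the number of false calls, not the errors or intervals. The simulated spread was equal in both strains and held no pairs within the wild type, so it differed from the data for ARG1 and ARG3. The number of arrays limits the precision. The replicates are called biological in the labels.

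The members and lists were chosen with earlier results of these data known. The genes named are HMT1, the 10 members, from each other list any gene that passed, otherwise the 2 with the largest difference, and the 8 nearest in profile. ARG80, ARG81, ARG82, GCN4, GAP1, CAN1, GDH1, LEU4, STE3 and the other a-specific markers were named after their values were seen. Alternatives were each array left out, arrays centred, quantile normalization repeated, dim probe sets (under the 25th percentile) dropped, the replicate number as a block, array weights, a robust fit, an intensity trend, an unmoderated test, probe sets averaged, and either pair of wild-type arrays alone. Figures were drawn with matplotlib 3.10.9.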

Additional observations from a re-analysis of the deposited data

Results flagged for a closer look

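Among the 11 genes checked in the 4 wild-type arrays (the 10 arginine genes and HMT1), CAR2 was flagged because wild-type replicate 1, at 11.29, stood far from the other 3 wild-type arrays, which were between 12.04 and 12.18. Its gap to the nearest array was 0.85 of the whole range over the 4 arrays, past Dixon's critical value. Chance alone flags about 1 in 20 such groups. Without wild-type replicate 1 the strain difference of CAR2 went from 0.17 to -0.03. ARG1 and ARG3 were not flagged, since their 4 wild-type arrays fell into pairs.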

How the results depend on the processing

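The limma fit called 11 probe sets over all arrays, and none of them is an arginine gene. That number was 1 to 9 when arrays were left out in turn (9, 8, 3 and 1 without wild-type replicates 1 to 4, and 1 without any of the deletion arrays). It was 0 without dim probe sets (240 at an unadjusted p under 0.05), 1 with the replicate block and 59 with array weights. It was 1 with the unmoderated test, 5 with probe sets averaged per gene and 7 against wild-type replicates 1 and 3 only. Dropping dim probe sets removed HMT1, ARG2 and ARG3, so ARG2 and ARG3 have 17 values each. The 10 arginine genes stayed above an adjusted p of 0.05 in all 178 values of the 18 alternatives, the lowest being 0.0848 for ARG3 against wild-type replicates 2 and 4. Their differences moved in size, and the sign changed in 24 of the 178 values, over 8 genes, ARG2 and CAR1 being the exceptions. The median of the synthesis genes, 0.05, was -0.22 against wild-type replicates 1 and 3 only and 0.21 against 2 and 4 only, -0.02 with the replicate block, 0.17 with array weights, and between -0.09 and 0.10 with arrays left out. ARG1 was at -0.30 without wild-type replicate 2 and at 0.76 without replicate 1, and ARG3 at -0.12 without replicate 2 and 0.54 without replicate 3. With array weights ARG1 was at 0.68 and ARG3 at 0.63. The mean of CAR1 and CAR2, 0.18, was 0.07 without wild-type replicate 1 and 0.28 without replicate 3. Deviations of same-numbered arrays from their group means had correlations of -0.04, 0.17 and -0.51. Those of differently numbered arrays lay between -0.295 and 0.358. The main fit therefore did not pair arrays by number. With so few arrays these correlations cannot show whether the cultures were grown in pairs. The cause of the changes between alternatives was not tested.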
